A study of Homo sapiens with 22 samples.

Results

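The genes described here are the 5 that encode the NF-κB subunits (NFKB1, NFKB2, RELA, RELB and REL) and 5 that encode inhibitors of the pathway (NFKBIA, NFKBIB, NFKBIE, TNFAIP3 and TNIP1). They were chosen by name, with earlier results of these data known, as 10 of the 20668 gene symbols measured. All 10 passed the filter on low values that left 12713 genes. RNA was sequenced from MDA-MB-231, an established triple-negative breast cancer (TNBC) line, in 10 samples forming 5 groups of 2 biological replicates. Before treatment all cells were kept in phenol red-free medium with charcoal-stripped serum, which is depleted of steroid hormones. The groups were given vehicle, 100 nM Dex for 2 h, 100 nM Dex for 4 h, 10 μM CpdA for 2 h or 10 μM CpdA for 4 h. Dex (dexamethasone) is a synthetic steroid agonist of the glucocorticoid receptor (GR), and CpdA (compound A) is a non-steroidal selective GR modulator. The labels give vehicle no time point, so its 2 samples were the reference at both times, and the 4 comparisons with vehicle share them.

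NF-κB is a family of dimeric transcription factors that drive inflammatory and survival genes. In resting cells IκB proteins, the products of NFKBIA, NFKBIB and NFKBIE, hold the dimers in the cytoplasm. Upstream kinases mark IκB for degradation when a signal arrives, and the freed dimers enter the nucleus and bind κB motifs, some of them at the genes of their own inhibitors. TNFAIP3 (A20) is a ubiquitin-editing enzyme that shuts off signalling above the kinases, and TNIP1 is a ubiquitin-binding protein that works with it. Glucocorticoids are known to restrain NF-κB activity, and a rise of NFKBIA is among the mechanisms described for this.

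The pattern over the 10 genes was mixed. With Dex, NFKBIA rose 3.03-fold at 2 h and 3.18-fold at 4 h and TNFAIP3 rose 2.72-fold and 2.30-fold, the last of these shrinking to 0.87 on the log2 scale without vehicle replicate 2, while NFKBIE fell to 0.506 of vehicle at 2 h and 0.391 at 4 h, and NFKB1, NFKB2 and RELB fell to between 0.703 and 0.765 of vehicle. With CpdA, NFKBIA fell to 0.592 of vehicle at 2 h, and NFKBIE, TNFAIP3, TNIP1, NFKB1 and RELB fell at both times. RELA, the most abundant subunit, did not pass the test against vehicle in any of the 4 comparisons. In bulk RNA, less RNA per cell and fewer cells that express a gene cannot be told apart. A gene was called when the Benjamini-Hochberg adjusted p of limma, taken over the 12713 genes, was under 0.05.

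Most of these genes carry κB motifs in their own promoters. The RefSeq promoter table (GRCh38.p14, 250 bases before to 50 bases after each start) held 8 of the 10 genes, without RELB and NFKBIE, in 14 promoters. The κB letters GGGNNNTTCC, searched on both strands, were found in 8 of the 14 promoters, against 6.52% of all 35116 promoters in the table. Counted by gene, 7 of the 8 had a match in at least 1 promoter, RELA being the exception. The share by gene over all genes was not computed. A strict glucocorticoid response element, GNACANNNTGTNC on either strand, was in none of the 14 and in 0.39% of all promoters. These are matches of letters in a short window and say nothing of binding, or of elements elsewhere. The 120 bases before the start are printed for 5 genes, because they show the same motif at genes that moved in opposite directions with Dex. Capitals mark the κB matches, read 5′ to 3′ on the gene's own strand. The stretches lie at chr14:35404750-35404869 (minus strand) for NFKBIA, chr6:137867139-137867258 (plus) for TNFAIP3, chr5:151081035-151081154 (minus) for TNIP1, chr4:102501239-102501358 (plus) for NFKB1 and chr10:102394458-102394577 (plus) for 1 of the starts of NFKB2.
NFKBIA: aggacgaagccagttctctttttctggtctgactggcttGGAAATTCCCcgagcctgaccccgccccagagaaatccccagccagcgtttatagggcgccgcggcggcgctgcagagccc
TNFAIP3: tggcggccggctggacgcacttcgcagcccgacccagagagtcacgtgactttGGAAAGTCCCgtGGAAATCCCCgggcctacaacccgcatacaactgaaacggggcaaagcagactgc
TNIP1: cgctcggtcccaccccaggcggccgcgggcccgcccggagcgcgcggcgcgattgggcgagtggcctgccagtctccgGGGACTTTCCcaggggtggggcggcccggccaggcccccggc
NFKB1: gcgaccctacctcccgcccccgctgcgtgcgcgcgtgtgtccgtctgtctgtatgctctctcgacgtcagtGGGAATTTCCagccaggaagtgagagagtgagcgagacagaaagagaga
NFKB2: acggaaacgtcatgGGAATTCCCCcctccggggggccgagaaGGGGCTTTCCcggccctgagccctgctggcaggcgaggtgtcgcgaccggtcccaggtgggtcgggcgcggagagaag
NFKBIA and TNFAIP3, which rose with Dex, carried the motif at base -81 and at bases -67 and -55 from the start. NFKB1 and NFKB2, which fell with Dex, carried it at base -49 and at bases -106 and -78, and TNIP1 at base -42.

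Several facts of the samples touch the values below. The deposited unit is RPKM, reads on a gene scaled to its transcript length and to the mapped reads of the sample. Relative depth, read from the RPKM step of 1 read, ran from 1.0 in vehicle replicate 1 to 1.212 in a Dex 2 h sample, both vehicle libraries being below the treated ones. The vehicle replicates stood apart from each other on the target genes of this pathway. Of 25 NF-κB target genes tested, 24 were higher in vehicle replicate 1 than in replicate 2, with a median log2 difference of 0.52, against 50.8% of all genes kept and a median of 0.00. Other pathway lists had no such shift: 11 of 27 kinases and adaptors and 8 of 15 further regulators were higher in replicate 1. Among the 10 genes the log2 difference between vehicle replicates was 0.78 for REL, 0.67 for TNFAIP3, 0.34 for NFKBIA and 0.23 for NFKBIE, and it was at most 0.15 in size for the other 6. The spread over all genes had an SD of 0.26. Values without each vehicle sample are given below for the 4 genes with the widest vehicle pairs. As a check on the Dex labels, TSC22D3 (GILZ), a standard glucocorticoid-induced gene, had 9.79 and 8.22 RPKM in vehicle and at least 302 RPKM in each of the 4 Dex samples. Of the other check genes, PER1 averaged 1.67 RPKM in vehicle and 36.4 and 37.6 RPKM in Dex 2 h and 4 h. In the same order FKBP5 averaged 6.50, 74.2 and 207.3 RPKM, and NR3C1, the GR gene, averaged 21.6, 14.6 and 11.0 RPKM. The mesenchymal marker VIM was at 1267 RPKM or more in every sample, and ESR1 and PGR, the hormone receptor genes that TNBC lacks, did not exceed 0.0048 RPKM. ERBB2, the HER2 gene and also part of the TNBC definition, had transcripts at 15.9 to 21.6 RPKM. Of the epithelial genes, EPCAM was at 8.02 to 10.6 RPKM and CDH1 at 0.226 to 0.465 RPKM.

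RPKM divides by transcript length, so levels can be ordered between genes. In vehicle, TNIP1 had the highest level at 110.8 ± 0.448 RPKM (mean ± SD, n = 2), followed by RELA at 73.6 ± 0.913 RPKM. NFKBIA at 42.8 ± 7.18, NFKBIE at 35.6 ± 4.07 and RELB at 34.3 ± 2.53 RPKM came next, and each overlapped its neighbour in the order. NFKB2 at 30.0 ± 1.81 and NFKB1 at 29.3 ± 1.21 RPKM also overlapped each other. NFKBIB at 10.2 ± 0.120, TNFAIP3 at 4.33 ± 1.44 and REL at 1.69 ± 0.671 RPKM were the lowest, with no overlap between them. In the Dex groups NFKBIA, at 129.1 ± 3.78 RPKM after 2 h and 135.6 ± 10.2 after 4 h, came close to TNIP1 at 121.3 ± 0.657 and 127.1 ± 7.31 RPKM, the 4 h values overlapping.

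**Figure D1:**
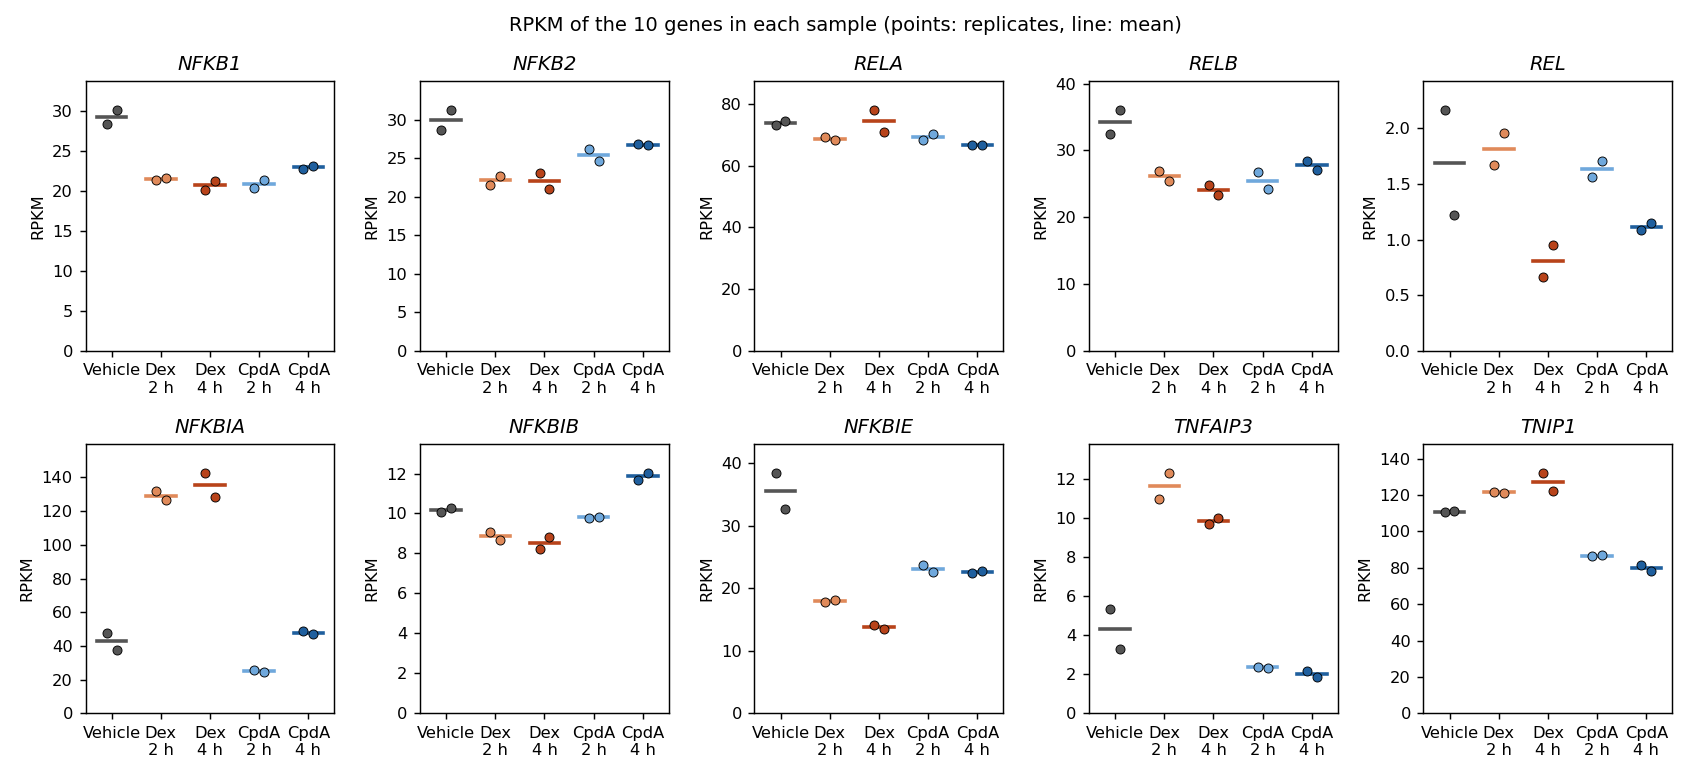
RPKM (vertical axis, linear from 0, a separate scale per gene) of the 10 genes in vehicle, Dex 2 h, Dex 4 h, CpdA 2 h and CpdA 4 h, with a point for each of the 2 replicates and a line at their mean. NFKBIA and TNFAIP3 stand highest in the Dex groups, while NFKBIE, NFKB1 and RELB have their highest points in vehicle and RELA stays between 66.5 and 78.0 RPKM in every sample.

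Among the subunits, NFKB1, whose precursor protein is processed to the DNA-binding p50 subunit, lay at GRCh37 chromosome 4, 103422487 to 103538459. It had 28.5 and 30.2 RPKM in vehicle, 21.4 and 21.6 in Dex 2 h, 20.1 and 21.3 in Dex 4 h, 20.4 and 21.4 in CpdA 2 h, and 22.8 and 23.2 in CpdA 4 h. Both vehicle samples were above all 8 treated samples. The log2 change from vehicle, on log2(RPKM + 0.1) with an SE of 0.05, was -0.44 (adjusted p = 0.000295) in Dex 2 h, -0.50 (6.73e-05) in Dex 4 h, -0.49 (0.000677) in CpdA 2 h and -0.35 (0.00123) in CpdA 4 h. NFKB1 was therefore called lower under both ligands at both times.

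NFKB2, whose precursor gives the p52 subunit of the non-canonical branch, is at GRCh37 chromosome 10, 104153867 to 104162281. Its RPKM was 28.7 and 31.2 in vehicle, 21.5 and 22.7 in Dex 2 h, 23.1 and 20.9 in Dex 4 h, 26.1 and 24.6 in CpdA 2 h, and 26.8 and 26.7 in CpdA 4 h. Vehicle again lay above every treated sample, with the CpdA samples between vehicle and Dex. NFKB2 fell by 0.44 on the log2 scale at both Dex times (SE 0.06, adjusted p = 0.00172 at 2 h and 0.000714 at 4 h). The CpdA changes of -0.24 (95% interval -0.38 to -0.10, adjusted p = 0.0584) at 2 h and -0.16 (-0.30 to -0.02, adjusted p = 0.104) at 4 h did not pass. Without either Dex 4 h replicate both CpdA changes of NFKB2 passed (0.0248 and 0.0251 at 2 h, 0.0493 and 0.0496 at 4 h), as did the 2 h change without vehicle replicate 1 (-0.30, adjusted p = 0.0394).

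RELB, the partner of NFKB2 in the non-canonical dimer, is at GRCh37 chromosome 19, 45504719 to 45541450. It measured 32.5 and 36.1 RPKM in vehicle, 26.9 and 25.5 in Dex 2 h, 24.8 and 23.3 in Dex 4 h, 26.7 and 24.2 in CpdA 2 h, and 28.5 and 27.0 in CpdA 4 h. No treated sample reached vehicle. The log2 changes of RELB, with an SE of 0.07, were -0.39 (adjusted p = 0.00602) and -0.51 (0.000528) with Dex and -0.43 (0.00767) and -0.30 (0.0139) with CpdA, at 2 h and 4 h. The RELB calls were sensitive to single samples: the Dex 2 h call was lost without Dex 2 h replicate 2 (-0.35, adjusted p = 0.0574), the CpdA 2 h call without vehicle replicate 2 (-0.35, 0.0539) or CpdA 2 h replicate 2 (-0.36, 0.0778), and the CpdA 4 h call without vehicle replicate 2 (-0.23, 0.0783), CpdA 4 h replicate 1 (-0.34, 0.0503) or CpdA 4 h replicate 2 (-0.26, 0.106). Scaling each sample to the same median also ended the CpdA 4 h call (-0.24, adjusted p = 0.0589).

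RELA encodes p65, the main activating subunit, at GRCh37 chromosome 11, 65421070 to 65430561. It had 73.0 and 74.3 RPKM in vehicle, 69.1 and 68.4 in Dex 2 h, 78.0 and 70.9 in Dex 4 h, 68.1 and 70.2 in CpdA 2 h, and 66.7 and 66.5 in CpdA 4 h. All 10 samples lay within a narrow band. The changes from vehicle were -0.10 (95% interval -0.21 to 0.01, adjusted p = 0.277) in Dex 2 h, 0.01 (-0.09 to 0.12, 0.859) in Dex 4 h, -0.09 (0.333) in CpdA 2 h and -0.14 (0.0624) in CpdA 4 h, none of which passed. With either Dex 4 h sample left out, the RELA change in CpdA 4 h passed at the same size (adjusted p = 0.00947 and 0.00949), as it did after quantile normalization (-0.16, adjusted p = 0.017) and with only the vehicle and CpdA 4 h samples fitted (adjusted p = 0.0337).

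REL encodes c-Rel, a subunit best known from lymphocytes, at GRCh37 chromosome 2, 61108626 to 61158747. It was the lowest of the 10 genes, at 2.17 and 1.22 RPKM in vehicle, 1.67 and 1.95 in Dex 2 h, 0.662 and 0.951 in Dex 4 h, 1.56 and 1.703 in CpdA 2 h, and 1.08 and 1.15 in CpdA 4 h. The wide vehicle pair overlapped the Dex 2 h and CpdA 2 h samples, and the Dex 4 h samples lay below all others. REL was called in Dex 4 h alone, at -0.95 (SE 0.24, adjusted p = 0.0168), with 0.14 (0.811) in Dex 2 h, 0.00 (1.0) in CpdA 2 h and -0.51 (0.177) in CpdA 4 h. Without vehicle replicate 1 the Dex 4 h change of REL was -0.56 (adjusted p = 0.0866), without Dex 4 h replicate 1 it was -0.72 (0.0927), and without vehicle replicate 2 the Dex 4 h change was -1.34 (0.00203) and the CpdA 4 h change passed at -0.90 (0.0187). The 2 h changes of REL, none of them called, took either sign: 0.53 and -0.25 with Dex, and 0.39 and -0.39 with CpdA, without vehicle replicate 1 and 2. The Dex 4 h call of REL also failed with no filter on low values (0.0597) and with only the vehicle and Dex 4 h samples fitted (0.0636), and with a pseudocount of 1 the change was -0.56 (0.0208). A same-strand long noncoding RNA shares 33.3% of the annotated exon bases of REL, so its RPKM may include reads of that transcript.

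Among the inhibitors, NFKBIA encodes IκBα, the fast feedback inhibitor of the canonical pathway, at GRCh37 chromosome 14, 35870285 to 35873955. It had 47.9 and 37.8 RPKM in vehicle, 131.8 and 126.5 in Dex 2 h, 142.8 and 128.4 in Dex 4 h, 25.7 and 24.5 in CpdA 2 h, and 48.7 and 47.0 in CpdA 4 h. The Dex samples were above all others, the CpdA 2 h samples below all others, and the CpdA 4 h samples overlapped vehicle. NFKBIA rose 3.03-fold in Dex 2 h (log2 1.60, SE 0.10, adjusted p = 6.65e-06) and 3.18-fold in Dex 4 h (1.67, adjusted p = 2.42e-06), and fell by 0.76 on the log2 scale in CpdA 2 h (adjusted p = 0.00251). At CpdA 4 h the change was 0.17 (95% interval -0.05 to 0.39, adjusted p = 0.268). Without vehicle replicate 1 that last change of NFKBIA was 0.34 (adjusted p = 0.0171), and without vehicle replicate 2 it was -0.00. In the same order the NFKBIA change was 1.77 and 1.43 in Dex 2 h, 1.84 and 1.497 in Dex 4 h, and -0.59 and -0.93 in CpdA 2 h, each still called.

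NFKBIB encodes IκBβ, an IκB that is less tied to rapid feedback, at GRCh37 chromosome 19, 39390340 to 39399533. Its RPKM was 10.1 and 10.3 in vehicle, 9.06 and 8.66 in Dex 2 h, 8.25 and 8.83 in Dex 4 h, 9.79 and 9.81 in CpdA 2 h, and 11.7 and 12.0 in CpdA 4 h. The Dex samples lay below vehicle and the CpdA 4 h samples above it. The log2 changes of NFKBIB were small, at -0.20 (SE 0.05, adjusted p = 0.0414) in Dex 2 h, -0.25 (0.00628) in Dex 4 h, -0.05 (0.634) in CpdA 2 h and 0.22 (0.0166) in CpdA 4 h. The NFKBIB call in Dex 2 h was lost without either replicate of vehicle (0.0751 and 0.166), Dex 2 h (0.105 and 0.234), CpdA 2 h (0.0854 and 0.0855) or CpdA 4 h (0.0802 and 0.0807), and with median scaling (0.0545) or no abundance trend (0.0547). The rise in CpdA 4 h was lost without vehicle replicate 1 (0.21, adjusted p = 0.0653) or either CpdA 4 h replicate (0.24 and 0.0701, 0.20 and 0.125), and with only the 2 groups fitted the Dex calls of NFKBIB had adjusted p of 0.0968 at 2 h and 0.0966 at 4 h.

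NFKBIE encodes IκBε, an IκB induced later than IκBα in the classical response, at GRCh37 chromosome 6, 44225903 to 44233525. It had 38.5 and 32.7 RPKM in vehicle, 17.7 and 18.1 in Dex 2 h, 14.1 and 13.5 in Dex 4 h, 23.7 and 22.5 in CpdA 2 h, and 22.4 and 22.8 in CpdA 4 h. Vehicle was above CpdA and CpdA above Dex, with no overlap between them. The log2 change was -0.98 (SE 0.07, adjusted p = 1.89e-05) in Dex 2 h, -1.35 (1.04e-06) in Dex 4 h, -0.62 (0.00134) in CpdA 2 h and -0.65 (0.00036) in CpdA 4 h. Without vehicle replicate 1 or 2 the NFKBIE change was -0.87 or -1.10 in Dex 2 h, -1.24 or -1.47 in Dex 4 h, -0.499 or -0.73 in CpdA 2 h and -0.53 or -0.76 in CpdA 4 h, all called. NFKBIE and NFKBIA thus moved in opposite directions with Dex and both fell in CpdA 2 h.

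TNFAIP3 lies at GRCh37 chromosome 6, 138188351 to 138204451. It had 5.35 and 3.32 RPKM in vehicle, 11.0 and 12.3 in Dex 2 h, 9.68 and 10.0 in Dex 4 h, 2.40 and 2.32 in CpdA 2 h, and 2.18 and 1.88 in CpdA 4 h. All 4 Dex samples were above vehicle and all 4 CpdA samples below it, although the vehicle pair itself was wide. TNFAIP3 rose 2.72-fold (log2 1.44, SE 0.18, adjusted p = 0.000689) in Dex 2 h and 2.30-fold (1.203, 0.000967) in Dex 4 h, and its log2 change was -0.81 (0.0308) in CpdA 2 h and -1.02 (0.00406) in CpdA 4 h. The sizes depended on the vehicle sample kept. Without vehicle replicate 1 the TNFAIP3 change was 1.78 in Dex 2 h, 1.54 in Dex 4 h, -0.48 (adjusted p = 0.03) in CpdA 2 h and -0.69 in CpdA 4 h, and without vehicle replicate 2 it was 1.11, 0.87, -1.15 and -1.36, all 8 of them called. The CpdA 2 h change did not pass without either CpdA 2 h replicate (0.163 and 0.17), either Dex 2 h replicate (0.0539 and 0.0537) or either CpdA 4 h replicate (0.0527 and 0.052), nor with no low-value filter (0.106), no abundance trend (0.0623) or only the 2 groups fitted (0.106).

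TNIP1 lies at GRCh37 chromosome 5, 150409506 to 150473138. It measured 110.4 and 111.1 RPKM in vehicle, 121.8 and 120.9 in Dex 2 h, 132.2 and 121.9 in Dex 4 h, 86.4 and 86.9 in CpdA 2 h, and 81.2 and 78.3 in CpdA 4 h. The order from Dex through vehicle to CpdA held in every sample. TNIP1 rose in Dex 4 h by 0.20 (SE 0.04, adjusted p = 0.0102), had 0.13 (adjusted p = 0.116) in Dex 2 h, and fell by 0.35 (0.00228) in CpdA 2 h and by 0.47 (0.000177) in CpdA 4 h. The Dex 2 h change of TNIP1 passed without either Dex 4 h replicate (both 0.0242) and after quantile normalization (0.12, adjusted p = 0.0276), which gave 0.13 (0.0111) in Dex 4 h. With only the vehicle and Dex 4 h samples fitted the Dex 4 h change had an adjusted p of 0.125.

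**Figure D2:**
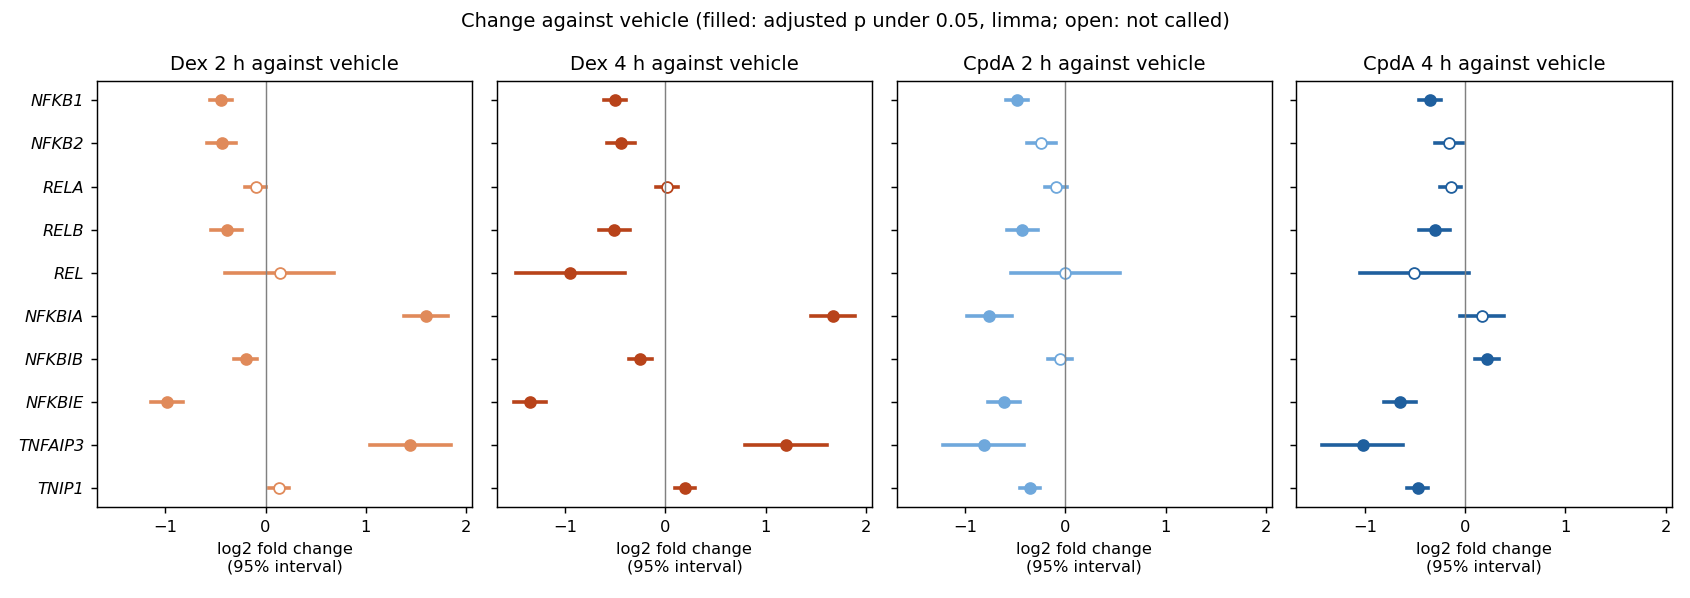
Log2 fold change from vehicle (horizontal axis, on log2(RPKM + 0.1)) of the 10 genes in the 4 comparisons with vehicle, with 95% intervals from limma and filled points where the adjusted p was under 0.05. NFKBIA and TNFAIP3 lie far to the right in both Dex panels, NFKBIE lies to the left in all 4 panels, and the intervals of REL are the widest.

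Counted together, Dex at 2 h raised 2 of the 10 genes and lowered 5, where 4.49% of all genes tested were called higher and 5.82% lower. At 4 h Dex raised 3 and lowered 6, against 9.26% and 18.2% of all genes. CpdA raised 0 and lowered 6 at 2 h, against 1.89% and 4.29%, and raised 1 and lowered 5 at 4 h, against 6.76% and 13.8%. At an unadjusted p under 0.05 the number higher with CpdA at 2 h was also 0 in the limma fit. Because the genes were chosen with earlier results of these data known, the counts beside the shares of all genes are a description. The subunits had a median log2 change of -0.39 and -0.50 with Dex and -0.24 and -0.30 with CpdA at 2 h and 4 h, where the median over all genes was -0.02 and -0.05 with Dex and -0.02 and -0.04 with CpdA. The inhibitors had medians of 0.13 and 0.20 with Dex and -0.62 and -0.47 with CpdA. The members called number 5 to 8 in Dex 2 h, 8 to 9 in Dex 4 h, 4 to 7 in CpdA 2 h and 4 to 8 in CpdA 4 h when each sample in turn is left out.

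The sum of the classical IκB transcripts and its make-up differed between the groups. NFKBIA, NFKBIB and NFKBIE summed to 96.5 and 80.7 RPKM in vehicle, 158.6 and 153.2 in Dex 2 h, 165.2 and 150.7 in Dex 4 h, 59.3 and 56.9 in CpdA 2 h, and 82.8 and 81.8 in CpdA 4 h. NFKBIA made up 48.2% ± 2.05 (SD, n = 2) of that sum in vehicle, 82.8% ± 0.394 in Dex 2 h, 85.8% ± 0.918 in Dex 4 h, 43.3% ± 0.208 in CpdA 2 h and 58.1% ± 1.03 in CpdA 4 h. The share was thus higher in Dex than in vehicle by far more than the spread between replicates. The 5 subunits summed to 168.9 ± 5.79 RPKM in vehicle and to between 140.3 and 145.2 RPKM in the treated groups. The IκB sum per subunit sum was 0.526 ± 0.084 in vehicle, 1.11 ± 0.0244 in Dex 2 h, 1.11 ± 0.0211 in Dex 4 h, 0.407 ± 0.0103 in CpdA 2 h and 0.567 ± 0.0008 in CpdA 4 h. The ratio of NFKBIA to RELA was 0.582 ± 0.105 in vehicle, 1.88 ± 0.0405 and 1.82 ± 0.0151 with Dex, and 0.364 ± 0.0202 and 0.718 ± 0.0168 with CpdA. These sums and ratios are of transcripts, were not tested, and with 2 samples against 2 a permutation test could not have reached 0.05.

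**Figure D3:**
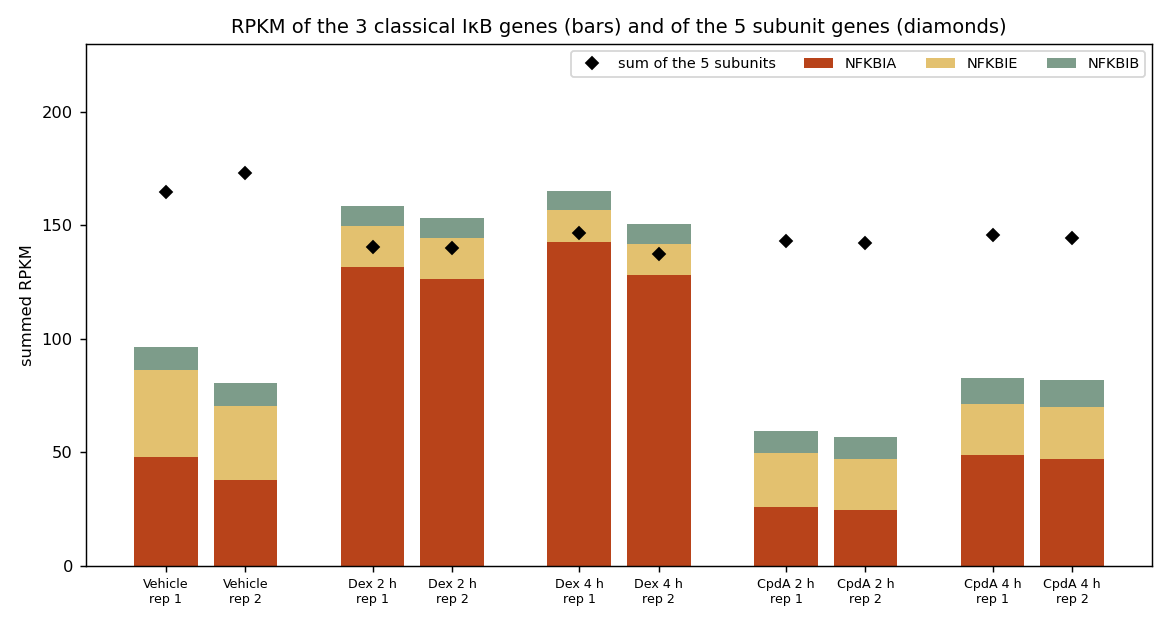
Stacked bars give the RPKM of NFKBIA, NFKBIE and NFKBIB in each of the 10 samples (vertical axis from 0), and diamonds give the summed RPKM of the 5 subunit genes. The bars pass the diamonds in the 4 Dex samples, where NFKBIA makes up over 82% of the bar, and stay below them in the vehicle and CpdA samples.

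Dex and CpdA were next compared directly at each time, at unequal doses of 100 nM and 10 μM. At 2 h, 3 of the 10 genes were higher with Dex and 1 was lower, against 7.53% and 6.18% of all genes. At 4 h, 4 were higher and 5 lower, against 15.4% and 18% of all genes. All 3 inhibitors that were higher at 2 h were higher at 4 h. NFKBIA was 5.12-fold higher with Dex at 2 h (log2 2.36, 95% interval 2.13 to 2.58, adjusted p = 4.14e-07) and 2.83-fold at 4 h (1.499, 1.28 to 1.72, adjusted p = 4.07e-06). TNFAIP3 was 4.77-fold higher at 2 h (log2 2.25, adjusted p = 3e-05) and 4.68-fold at 4 h (2.23, adjusted p = 1.54e-05). TNIP1 was higher with Dex by 0.49 (8.38e-05) and 0.67 (4.72e-06) on the log2 scale. These 3 genes did not overlap between the ligands at either time. Genes that were not called could also lack overlap, such as NFKB1 at 2 h and REL at 4 h. The share of all genes without overlap was not computed.

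NFKBIE was lower with Dex than with CpdA, with a log2 difference of -0.37 (adjusted p = 0.0074) at 2 h and -0.71 (6.36e-05) at 4 h, although its 2 h call was lost without Dex 2 h replicate 1 (-0.35, 0.0603) or CpdA 2 h replicate 1 (-0.33, 0.0736). NFKBIB differed by -0.47 (0.000119) at 4 h and by -0.15 (95% interval -0.26 to -0.03, adjusted p = 0.11) at 2 h. NFKB2 differed by -0.28 (0.00745) at 4 h and by -0.20 (-0.34 to -0.06, 0.0716) at 2 h. Without either Dex 4 h replicate the 2 h differences of NFKB2 (0.0312 and 0.0314) and NFKBIB (0.046 and 0.0463) passed, and that of NFKB2 also passed with only the 2 groups fitted (0.0268).

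The other subunits did not pass between the ligands at 2 h. The difference was 0.04 (95% interval -0.07 to 0.15) for NFKB1, -0.01 (-0.12 to 0.10) for RELA, 0.04 (-0.11 to 0.20) for RELB and 0.14 (-0.40 to 0.68) for REL, with adjusted p of at least 0.718. At 4 h NFKB1 (-0.15, adjusted p = 0.0393), RELB (-0.21, 0.0459) and RELA (0.16, 0.0301) passed and REL (-0.44, -0.98 to 0.10, 0.196) did not. The 4 h calls of these 3 genes were near the threshold. NFKB1 lost its call without Dex 4 h replicate 1 (-0.11, 0.138) or without either replicate of CpdA 4 h (0.12 and 0.182), Dex 2 h (0.0631 and 0.063) or CpdA 2 h (both 0.057). RELA lost it without Dex 4 h replicate 1 (0.09, adjusted p = 0.1) or either replicate of CpdA 4 h (0.118 and 0.133) or CpdA 2 h (both 0.0508). RELB lost it without Dex 4 h replicate 2 (-0.16, 0.146) or either replicate of CpdA 4 h (0.225 and 0.0908) or Dex 2 h (0.0618 and 0.0616). With only the 2 groups fitted the adjusted p was 0.109 for NFKB1, 0.13 for RELA and 0.0576 for RELB.

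**Figure D4:**
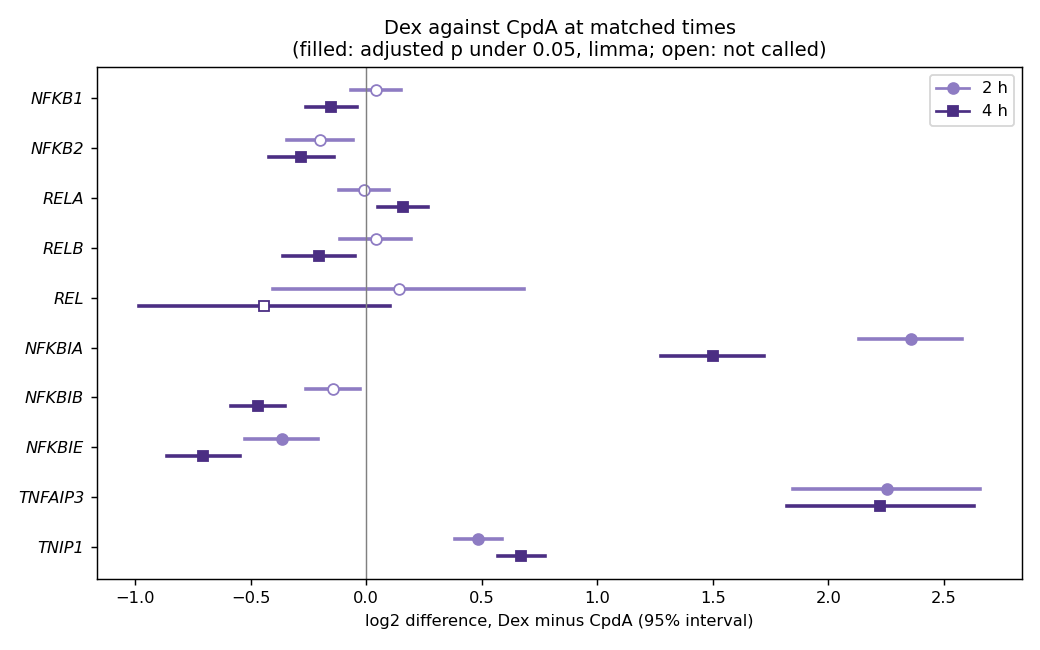
Log2 difference between Dex and CpdA (horizontal axis, Dex minus CpdA) for the 10 genes at 2 h (circles) and 4 h (squares), with 95% intervals from limma and filled symbols where the adjusted p was under 0.05. NFKBIA and TNFAIP3 lie beyond 1.4 at both times, and the NFKBIA interval at 4 h lies wholly to the left of that at 2 h.

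The time courses of the 2 ligands were compared last. Between 2 h and 4 h of Dex, 0 of the 10 genes rose and 2 fell, against 4.55% and 9.02% of all genes. These were REL (log2 -1.09, adjusted p = 0.019) and NFKBIE (-0.37, 0.00977). REL lost that call without either Dex 2 h replicate (0.0723 and 0.119) or Dex 4 h replicate 1 (-0.86, 0.0875), and NFKBIE lost it without either Dex 2 h replicate (0.0597 and 0.0689). NFKBIA had a difference of 0.07 (95% interval -0.15 to 0.29) over this span. At an unadjusted p under 0.05, RELA was the 1 gene higher at 4 h (0.11). Without Dex 4 h replicate 2, RELA (0.18, adjusted p = 0.0109) and TNIP1 (0.12, 0.0416) passed as higher at 4 h. The Dex 4 h replicate 1 sample had the higher value of that group for RELA, NFKBIA and TNIP1.

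Between 2 h and 4 h of CpdA, 2 genes rose and 0 fell, against 5.21% and 7.2% of all genes, and at an unadjusted p under 0.05 TNIP1 (-0.12) was the 1 gene lower. NFKBIA rose by 0.93 on the log2 scale (SE 0.10, adjusted p = 0.00124), from 25.1 ± 0.857 to 47.8 ± 1.24 RPKM, and NFKBIB rose by 0.27 (0.0117), from 9.80 ± 0.0124 to 11.9 ± 0.269 RPKM. NFKBIE and TNFAIP3 had values of -0.03 (95% interval -0.19 to 0.13) and -0.21 (-0.61 to 0.19) over the same span. NFKBIB lost its call without any one of the 4 CpdA samples (adjusted p 0.0915, 0.0877, 0.073 and 0.104), while TNIP1 passed as lower (-0.12) without either Dex 4 h replicate (both 0.029), after quantile normalization (0.0291) and with only the CpdA samples fitted (0.0307). In that last fit NFKB1 (0.14, adjusted p = 0.0338) and REL (-0.51, 0.0114) also passed.

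Whether the difference between the ligands itself changed with time was tested as an interaction, which does not use the vehicle samples as a reference. It was called for NFKBIA and NFKBIB, where 3.04% of all genes were called with a positive value and 3.56% with a negative one. For NFKBIA the Dex minus CpdA difference was smaller at 4 h than at 2 h by 0.86 on the log2 scale (interaction -0.86, SE 0.14, adjusted p = 0.00805). For NFKBIB it was more negative at 4 h (interaction -0.32, SE 0.07, adjusted p = 0.0324), a call lost without either replicate of Dex 2 h (0.132 and 0.0766), CpdA 2 h (0.133 and 0.123) or CpdA 4 h (0.0998 and 0.148). TNFAIP3 had an interaction of -0.03 (95% interval -0.60 to 0.54), which spans changes of either sign.

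Other genes of the pathway were taken from lists of upstream kinases and adaptors, of further IκB-family and negative regulators, and of target genes. These lists were also chosen with earlier results of these data known. Of 27 kinases and adaptors tested, 2 rose and 5 fell in Dex 2 h, where 4.49% of all genes tested were higher and 5.82% lower. Those for Dex 4 h were 3 and 9 (all genes 9.26% and 18.2%), for CpdA 2 h 1 and 5 (1.89% and 4.29%) and for CpdA 4 h 1 and 6 (6.76% and 13.8%). The list medians lay between -0.08 and -0.10 on the log2 scale. In CpdA 4 h, 3 rose and 8 fell without vehicle replicate 1, and 0 and 4 without vehicle replicate 2. With any 1 sample left out, the number that fell ran from 2 to 7 in Dex 2 h, 8 to 9 in Dex 4 h, 2 to 6 in CpdA 2 h and 4 to 10 in CpdA 4 h. RIPK2, the kinase of the NOD receptors, rose with Dex from 8.02 and 7.21 RPKM in vehicle to between 15.3 and 18.2 RPKM (log2 1.09, adjusted p = 1.18e-05 at 2 h, and 1.21, 2.74e-06 at 4 h).

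MAP3K14 (NIK), the kinase that starts the non-canonical branch of NFKB2 and RELB, moved in opposite directions with the ligands. It had 19.0 and 14.2 RPKM in vehicle, 10.3, 10.8, 9.84 and 9.76 in the Dex samples, and 26.8, 26.4, 21.3 and 21.6 in the CpdA samples. MAP3K14 changed by -0.63 (adjusted p = 0.00476) and -0.74 (0.000883) with Dex and by 0.69 (0.0069) and 0.38 (0.0356) with CpdA. Its CpdA 2 h call was lost without either replicate of that group (0.0654 and 0.0545). The CpdA 4 h call was lost without vehicle replicate 2 (0.17, adjusted p = 0.0537) or either replicate of CpdA 4 h (0.138 and 0.15), CpdA 2 h (0.0584 and 0.0582) or Dex 2 h (0.0558 and 0.0556), and without vehicle replicate 1 the change was 0.59.

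Of the genes of the complex that marks MAP3K14 for degradation, the kinase and adaptor list held TRAF2, TRAF3 and BIRC2. The target list held BIRC3, which is described below. TRAF3 fell in Dex 4 h (-0.56, adjusted p = 0.000279), Dex 2 h (-0.28, 0.0292) and CpdA 2 h (-0.46, 0.00509), with -0.22 (0.0521) in CpdA 4 h. The Dex 2 h call of TRAF3 was lost without vehicle replicate 2 (-0.20, 0.177) or either replicate of Dex 2 h (0.162 and 0.125) or CpdA 2 h (0.0535 and 0.0533), and its CpdA 2 h call without CpdA 2 h replicate 2 (-0.43, 0.0617). TRAF2 fell in CpdA 2 h (-0.47, 0.00151), CpdA 4 h (-0.54, 0.000262) and Dex 4 h (-0.32, 0.0022), with -0.13 (0.208) in Dex 2 h. BIRC2 (cIAP1), the ubiquitin ligase, rose in Dex 2 h (0.18, 0.0175) and Dex 4 h (0.29, 0.000645) and fell in CpdA 2 h (-0.33, 0.00183) and CpdA 4 h (-0.23, 0.00416). The Dex 2 h call of BIRC2 was lost without either vehicle replicate (0.0508 and 0.07) or either Dex 2 h replicate (0.113 and 0.095), and its CpdA 4 h call without CpdA 4 h replicate 2 (0.0524).

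The remaining kinase and adaptor genes named were MAP3K8, IRAK2, IKBKE and TAB1. MAP3K8 was called in Dex 2 h (-0.80, adjusted p = 0.00376) and IRAK2 in Dex 4 h (-0.85, 0.000488), and each was called in no other comparison with vehicle. IKBKE, a kinase related to the IκB kinases, fell in all 4 comparisons, by 0.24 (0.0159) and 0.46 (0.000152) with Dex and by 0.24 (0.0293) and 0.59 (0.00011) with CpdA. The 2 h calls of IKBKE were lost without vehicle replicate 2 (0.0917 with Dex and 0.148 with CpdA) or either replicate of the treated group (0.0797 and 0.112 with Dex, 0.15 and 0.212 with CpdA), and that with CpdA also without either replicate of Dex 2 h (0.0581 for each) or CpdA 4 h (0.0675 and 0.0676). TAB1, a partner of the kinase TAK1, fell in CpdA 4 h alone among the 4 (-0.37, 0.00335).

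Of the 15 further IκB-family and negative regulators tested, 0 rose and 2 fell in Dex 2 h (all genes 4.49% and 5.82%), 1 rose and 5 fell in Dex 4 h (9.26% and 18.2%), 0 rose and 2 fell in CpdA 2 h (1.89% and 4.29%), and 1 rose and 2 fell in CpdA 4 h (6.76% and 13.8%). The CpdA 4 h counts are near the shares of all genes. Without vehicle replicate 1 and 2, the number of regulators that fell was 1 and 1 in Dex 2 h, 3 and 2 in Dex 4 h, 1 and 1 in CpdA 2 h, and 1 and 3 in CpdA 4 h, and with any 1 sample left out it ran from 1 to 6, 2 to 6, 0 to 4 and 1 to 3. The list medians were -0.16, -0.05, -0.05 and -0.07 in the same order, and at an unadjusted p under 0.05 the limma fit had 0 higher in Dex 2 h and 2 higher in CpdA 2 h. BCL3, a nuclear IκB-family protein that binds p50 and p52 dimers, had 18.7 and 9.30 RPKM in vehicle and between 3.71 and 4.35 RPKM in the Dex samples (log2 -1.68, adjusted p = 0.00218 at 2 h, and -1.77, 0.000726 at 4 h). All 4 Dex samples of BCL3 were below both vehicle samples, which differed from each other by 1.00 on the log2 scale.

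ZC3H12A (Regnase-1), an RNase that degrades inflammatory transcripts, rose in Dex 4 h (0.67, adjusted p = 0.00715), or by 0.43 (0.0241) without vehicle replicate 2. TAX1BP1, a ubiquitin-binding partner of TNFAIP3, rose in CpdA 4 h (0.26, 0.00212). PDLIM2, a ubiquitin ligase for nuclear p65, fell in CpdA 4 h (-0.73, 0.00215) and in Dex 4 h (-0.46, 0.0143), where the call was lost without vehicle replicate 2 (-0.42, 0.073) and the change was -0.31 (0.0481) without Dex 4 h replicate 2. The other named calls were near the threshold: PDLIM2 (-0.48, 0.0413) and CYLD (-0.37, 0.0202), a deubiquitinase that brakes the pathway, in CpdA 2 h, NKRF (-0.30, 0.025) in Dex 4 h, RNF11 (-0.16, 0.0298) in Dex 2 h and TNIP2 (-0.20, 0.0331) in CpdA 4 h. CYLD lost its call without vehicle replicate 2 (0.111) or either CpdA 2 h replicate (0.172 and 0.102), and NKRF without either vehicle replicate (0.0723 and 0.0978) or Dex 4 h replicate 1 (-0.16, 0.0804). PDLIM2 in CpdA 2 h (adjusted p from 0.0651 to 0.26), RNF11 (0.0524 to 0.186) and TNIP2 (0.0562 to 0.155) each lost theirs without any one of 8 samples, 2 of them vehicle.

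The target list held 30 genes, of which 25 were tested, BCL3 and NFKBIZ being on this list and on that of the regulators. With Dex 4 rose and 16 fell at 2 h (all genes 4.49% and 5.82%), and 4 rose and 15 fell at 4 h (9.26% and 18.2%), with medians of -0.77 and -1.04. With CpdA 2 rose and 7 fell at 2 h (1.89% and 4.29%), and 1 rose and 11 fell at 4 h (6.76% and 13.8%), with medians of -0.09 and -0.25. The CpdA counts depended on the vehicle sample kept. Without vehicle replicate 1, 7 rose and 4 fell at 2 h and 6 rose and 7 fell at 4 h, and without vehicle replicate 2 the counts were 1 and 10 at 2 h and 0 and 18 at 4 h. With Dex they were 4 and 14 or 4 and 17 at 2 h, and 4 and 15 or 4 and 17 at 4 h. With any 1 sample left out, 3 to 10 fell in CpdA 2 h and 6 to 18 in CpdA 4 h, against 13 to 17 in Dex 2 h and 15 to 17 in Dex 4 h. Of the 25 genes, 24 were higher in vehicle replicate 1 than in replicate 2.

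The falls with Dex were led by IL6, IER3, CSF2 and CCL2, at log2 changes of -3.63, -3.00, -2.82 and -2.58 at 2 h. Their SEs were 0.32, 0.22, 0.31 and 0.30, with adjusted p of at most 0.00042. The vehicle replicates of these genes differed by 1.31, 0.88, 1.06 and 0.92 on the log2 scale, so the sizes depend on the vehicle sample kept. CCL2 was at 0.299 and 0.194 RPKM in Dex 2 h, below the 0.5 RPKM of the low-value filter. ICAM1, an adhesion molecule, fell in all 4 comparisons, by 1.04 and 1.31 with Dex and by 0.87 and 1.15 with CpdA (adjusted p of at most 1.28e-05), and IRF1, an interferon-pathway transcription factor, fell by 1.07 and 1.33 with Dex and by 1.08 and 0.93 with CpdA (at most 0.00238). At CpdA 2 h, IL6 rose by 1.701 (adjusted p = 0.0158), or by 1.04 without vehicle replicate 2, and the call was lost without either CpdA 2 h replicate (0.114 and 0.0903). CSF2 fell in CpdA 4 h (-2.44, 0.000772). Its change in CpdA 2 h (-1.42, 0.03) was -0.89 (0.0622) without vehicle replicate 1. BIRC3, an inhibitor of apoptosis, changed by 2.14 (0.000324) and 1.696 (0.00067) with Dex and by -1.08 (0.0308) in CpdA 2 h, the last being -0.60 (0.00672) without vehicle replicate 1. The CpdA 2 h calls of CSF2 and BIRC3 were also lost without either replicate of CpdA 2 h (0.126 and 0.187, 0.172 and 0.157), Dex 2 h (0.0559 and 0.0556, 0.0571 and 0.057) or CpdA 4 h (0.0572 and 0.0566, 0.0586 and 0.0581). CXCL1 in CpdA 4 h (-1.604, 0.0106) was -0.92 (0.00461) without vehicle replicate 1 and lost its call without CpdA 4 h replicate 2 (0.0746). CCL2 in CpdA 4 h (-1.40, 0.0103) was -0.94 (0.0545) without vehicle replicate 1 and lost its call without either CpdA 4 h replicate (0.0575 and 0.0676).

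**Figure D5:**
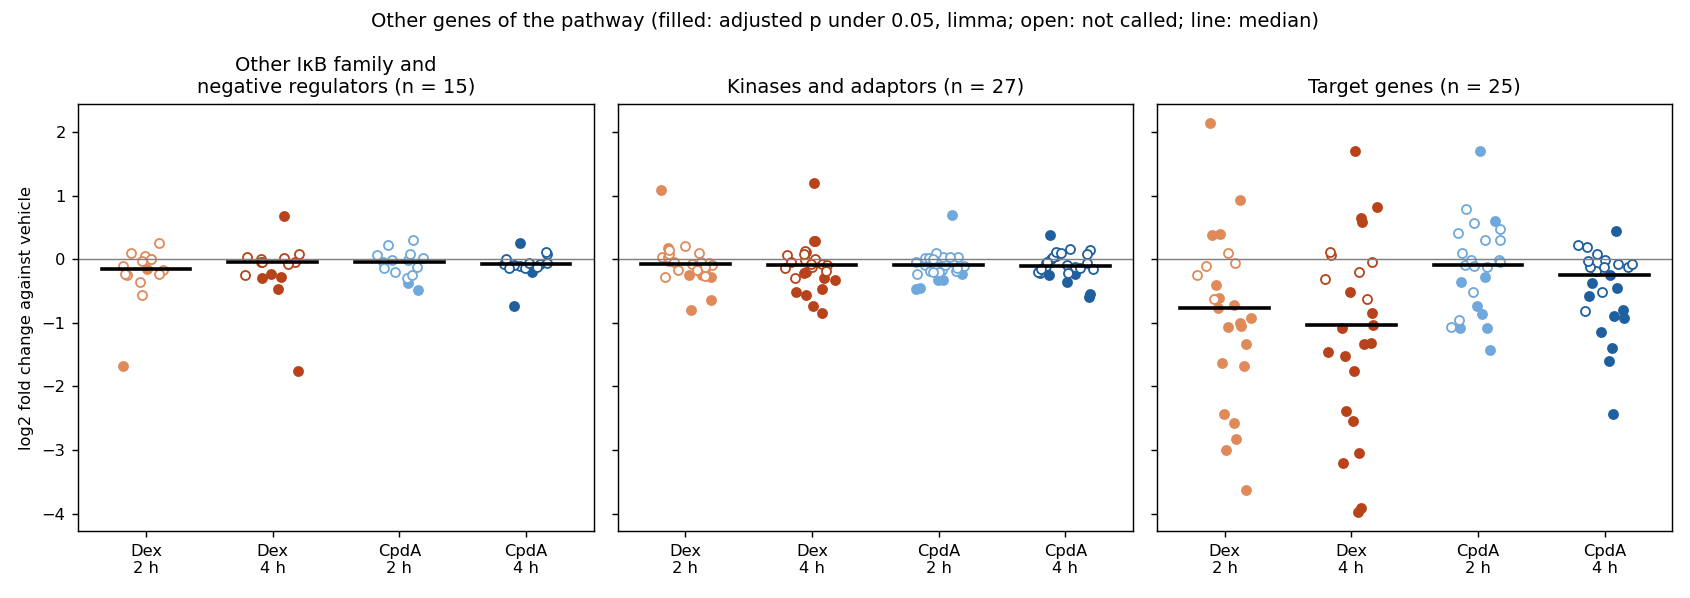
Log2 fold change from vehicle (vertical axis, on log2(RPKM + 0.1)) of each tested gene of the 3 further lists in the 4 comparisons, with filled points where the adjusted p from limma was under 0.05 and black lines at the list medians. BCL3 is the lowest point of the regulator list in both Dex columns and RIPK2 the highest of the kinase list there, while the target genes spread down to -3.97 with Dex.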

How the data were processed

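RNA-seq of 10 samples was analysed. The 12 other samples of the series, from chromatin immunoprecipitation, were not analysed here. The submitters' processing notes name TopHat2 2.0.13, Bowtie, Partek 6.6 and hg19, and the authors deposited RPKM for 20668 symbols per sample. Per the study's methods, abundances came from Partek at its defaults. Strand use and read totals are not given in the sources used here, so RPKM of overlapping genes may share reads and no counting interval was computed.

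Genes at 0.5 RPKM or more in at least 2 samples were kept (12713), and log2(RPKM + 0.1), which understates the changes of low genes, was fitted over the 5 groups with limma 3.58.1 in R 4.3.3 (eBayes with an abundance trend, Benjamini-Hochberg adjustment over the genes kept). The fit was tested only on simulated data with the same noise for every gene and a large added change. That test does not bear on small changes or on genes with wide vehicle pairs. The study calls the 2 samples of a group biological replicates and does not describe how they were separated. The p-values set a difference between groups against a spread between replicates, whatever its source. In the main fit that spread was estimated over all 5 groups and moderated across genes. Positions are from a GENCODE annotation on GRCh37. Other software was Python 3.11.15, numpy 2.4.6, pandas 2.3.3 and matplotlib 3.10.9.

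The 10 genes and all lists were chosen with earlier results of these data known. Named genes were the 10 genes, in each list the 4 largest calls per comparison with vehicle, check genes of the glucocorticoid response, and the 3 genes closest in pattern to members called at over 1.5-fold. Alternatives were a pseudocount of 1 or 0.01, a stricter or absent low-value filter, median scaling, quantile normalization, no trend, only the groups compared, a replicate block, and each sample left out, where the lone sample of a group is assumed to vary like the other groups.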

Additional observations from a re-analysis of the deposited data

Results flagged for a closer look

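The difference between Dex and CpdA changed between 2 h and 4 h for 2 of the 10 genes, by the interaction term of the limma fit. For NFKBIA the value was -0.86 on the log2 scale (adjusted p = 0.00805): Dex minus CpdA was 2.36 at 2 h and 1.499 at 4 h, and all 4 Dex samples were above all 4 CpdA samples. For NFKBIB the value was -0.32 (adjusted p = 0.0324), from -0.15 at 2 h to -0.47 at 4 h. Groups of 2 are too small for the check on outlying samples.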

How the results depend on the processing

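No value past the threshold changed direction under any alternative. Over 80 gene values in the comparisons and 19 alternatives, 1407 of 1512 recomputed values kept their side of the threshold, 76 lost a call and 29 gained one. A sign changed in 16, none of them called in either fit. The median of all genes moved by less than 0.1 under each scaling.

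The number of genes called between Dex 2 h and 4 h was 1 with no filter and 1 with RPKM of at least 1 in every sample, and 0 to 4 with a sample left out. Between CpdA 2 h and 4 h it was 5 with only those samples fitted and 1 to 3 with a sample left out. REL was not tested under the stricter filter. The interaction ranged from -0.37 to -0.27 for NFKBIB, where 6 of 10 omissions ended the call, and from -0.93 to -0.78 for NFKBIA. It ranged from -0.38 to -0.30 for NFKBIE (called without either vehicle sample, adjusted p = 0.0171 and 0.0169), and from -0.23 to -0.15 for NFKB1, 0.10 to 0.24 for RELA and 0.13 to 0.24 for TNIP1 (called without Dex 4 h replicate 2, adjusted p = 0.0451, 0.0148 and 0.0132). For NFKBIE the interaction was -0.34 in the main fit and without either vehicle sample, because vehicle has no weight in it. Its size thus did not change with the vehicle samples. The cause of the other shifts was not tested.

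The replicate numbers paired the samples weakly if at all: deviations of same-numbered samples had a mean correlation of 0.05 (-0.06 to 0.20, 10 pairs of groups). Over all genes, a replicate block raised the number called from 1311 to 1454 in Dex 2 h and from 2609 to 2884 in CpdA 4 h. Whether the samples were partly paired was not tested. With the replicate number as a block, 7, 9, 6 and 6 genes were called in Dex 2 h, Dex 4 h, CpdA 2 h and CpdA 4 h, as without it, and NFKB1 passed between CpdA 2 h and 4 h (0.14, adjusted p = 0.0476). Depth is known in relative terms only, so its limit on low genes such as REL was not measured.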

Other observations

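The genes closest in pattern to each strongly changed member are given as a description over the 10 samples, which share their libraries, by the root mean square difference of log2 values centred on each gene's own mean. For NFKBIE, whose own values varied by 0.45 around their mean, the closest were ZSWIM4 (0.08), SMAD3 (0.13) and RAP2B (0.14). For TNFAIP3, which varied by 1.02, they were KLF7 (0.23), SLC20A1 (0.29) and CDK5R1 (0.29). For NFKBIA, which varied by 0.95, they were MMP25 (0.28), ABTB2 (0.29) and ARRDC2 (0.29), and for REL, which varied by 0.46, BAZ2B (0.17), NAV1 (0.17) and SATB1 (0.18). ABTB2 averaged 17.6 RPKM in vehicle, 44.7 and 44.9 RPKM in Dex 2 h and 4 h, and 13.5 and 15.5 RPKM in CpdA 2 h and 4 h. In the same order MMP25 averaged 0.144, 0.758, 0.758, 0.107 and 0.152 RPKM. Its means were thus above the 0.5 RPKM of the low-value filter in the Dex groups only. At such levels the pseudocount of 0.1 shrinks the changes, so the closeness of MMP25 to NFKBIA depends on it.

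Short antisense overlaps exist for 3 members: the exon bases shared with the opposite strand are 1.89% for RELA (RELA-DT), 1.72% for NFKBIB (SIRT2) and 1.47% for TNFAIP3 (WAKMAR2).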
